A study of Mus musculus with 16 samples.

Results

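The RNA of mouse induced pluripotent stem cells (iPSCs) was compared between libraries titled KIX and libraries titled KI that carry the number 10. These are 4 of the 16 libraries of the study, 2 with the prefix KIX and 2 with the prefix KI. In each pair, 1 title has the letter D and 1 has the letter V. The study asked how a transient pulse of the microRNA miR-203 alters the transcriptome of iPSCs over time. All 4 libraries share the genotype ColA1_miR203; Rosa26rtTA, in which doxycycline acts through the rtTA transactivator to switch on a miR-203 construct. The iPSCs were reprogrammed from embryonic fibroblasts of this mouse model and were grown over feeder cells. The labels list 1 treatment, doxycycline for 5 to 7 days, for all 16 libraries, and they define neither the prefixes nor the letters nor the numbers. The titles were therefore compared as codes, with D and V as the 2 replicates of a prefix, and were read neither as treatments nor as days. The labels do not say whether D and V are separate cultures or clones, so a p-value here covers only the spread among the libraries at hand, which may be technical.

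Expression was given as FPKM, fragments counted per transcript and scaled by its length and by the size of the library. Of 23284 genes in the table, 13080 reached 1 FPKM in at least 2 of the 12 iPSC libraries, which carry the numbers 1, 4 and 10, and were tested. A difference is that of log2(FPKM + 1), KIX minus KI, and understates the change of low genes. A gene was called at an adjusted p under 0.05 in limma, with Benjamini-Hochberg adjustment over all tested genes. Where 2 values stand for a prefix, the first is the library with the letter D and the second that with the letter V.

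MicroRNAs are short RNAs that lower their target messages by pairing through a seed near the 5′ end. miR-203 is best known from stratified epithelium, where it restrains proliferation as cells leave the basal layer, and the de novo DNA methyltransferases Dnmt3a and Dnmt3b have been reported among its targets. Pluripotent cells are held by a circuit around Pou5f1, Sox2 and Nanog. Feeder layers are fibroblasts, rich in collagens and matrix proteins and able to secrete chemokines. MHC class I genes and their loading machinery are switched on by interferon and are low in undifferentiated stem cells.

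The mature miR-203-3p and its seed matches in the 3′ ends of reported targets are shown because they fix which messages the microRNA could pair with. The microRNA lies on chromosome 12 at chr12:112130927-112130948 (GRCm38.p6, plus strand, RefSeq), and capitals mark the seed, bases 2 to 8.
miR-203-3p: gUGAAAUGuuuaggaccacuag
Of 9 reported targets that were tested, 6 held the DNA match of the seed, CATTTCA, in the 3′ end of an annotated transcript (GENCODE, GRCm38), and each of the 6 held 1 match. The windows run 5′ to 3′ on the gene's strand, with the match in capitals. Dnmt3a has it at chr12:3913198-3913204 and Dnmt3b at chr2:153687445-153687451, both on the plus strand.
Dnmt3a: ataatgtaCATTTCAcagtctggt
Dnmt3b: gaaagctgCATTTCAgaaatgcca
Snai2 has it at chr16:14708706-14708712 and Bmi1 at chr2:18685862-18685868, both on the plus strand.
Snai2: tgccaaacCATTTCAaccaaagga
Bmi1: tagctaagCATTTCAttgtctgca
Abl1 (chr2:31802714-31802720, plus strand) and Socs3 (chr11:117966123-117966129, minus strand) held the other matches. Zeb2, Casc3 and E2f3 had no such letters in the 3′ end examined.

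The Mir203 row, the RNA of the microRNA gene in the polyadenylated fraction and not the mature microRNA, was listed at 0 in all 4 libraries of number 10. In KIX libraries it stood at 1868 and 1969 FPKM at number 1 and at 2254 and 1728 FPKM at number 4, against 0 in all KI libraries of those numbers. An exact 0 in such a table can be a failed estimate, so each library's value is given without a fold change. Over the 12 iPSC libraries, the sum of FPKM ranged from 641890 to 724350, and the genes at 1 FPKM or more from 12154 to 12375. The read depth of the libraries is unknown, since the file holds no counts. Pou5f1, which defines pluripotent cells, was at 1107 and 1113 FPKM in KIX and 920 and 869 FPKM in KI libraries of number 10, and all 10 pluripotency markers examined were above 1 FPKM, as the iPSC label implies.

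At number 10, 3384 of 13080 genes were called (25.9%), of which 1386 were higher in KIX (10.6% of those tested) and 1998 were lower in KIX (15.3%). Each list count below is to be read beside these shares. The median difference over all tested genes was 0.00, and 24 called genes were higher and 35 lower by at least 1 on the log2 scale. With library medians made equal, 2274 called genes were higher and 1649 lower in KIX, so the share of calls that were higher was 58.0% there and 41.0% in the values used here. The libraries of the prefixes did not overlap in 8933 genes (68.3%). With the 4 libraries fitted alone, 1636 genes were called, 573 of them higher and 1063 lower in KIX. Leaving out 1 library lowered the count to 507 without KIX D, 1616 without KIX V, 1190 without KI V and 2775 without KI D. The lone library of a prefix is then taken to vary like the other groups. Of the 89 called genes named here, all kept their direction in these 4 fits, and not all stayed called. Where the prefixes do not overlap, leaving out 1 library cannot turn the direction. The rule for the largest rises and falls required this, so their kept direction is no check.

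**Figure D1:**
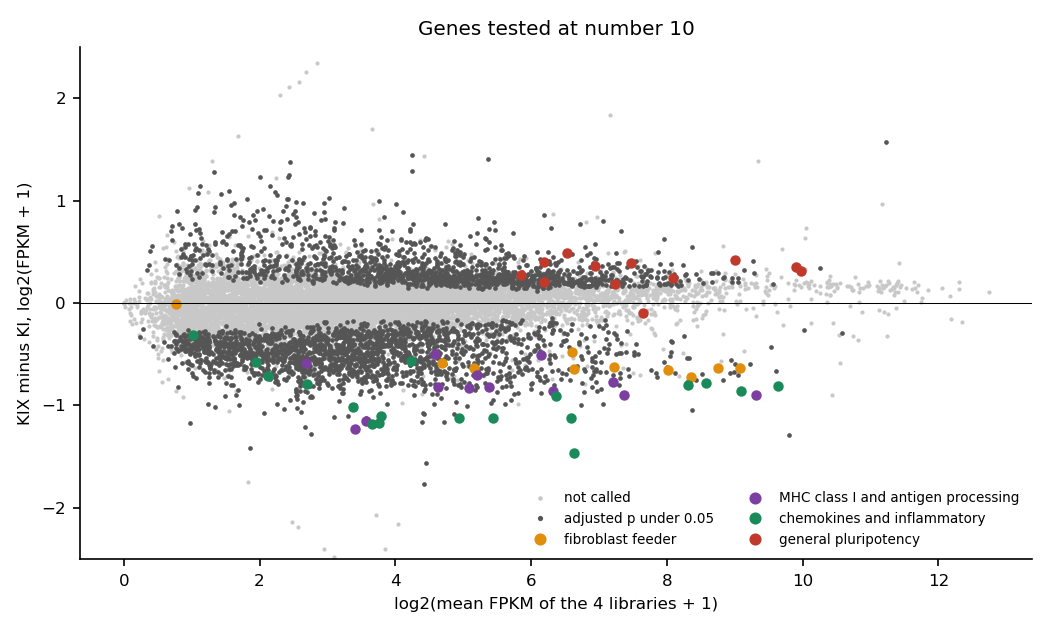
Difference of log2(FPKM + 1), KIX minus KI at number 10, against the log2 of the mean FPKM of the 4 libraries plus 1, with 1 point for each tested gene. Dark points are called genes and coloured points are the genes of 4 lists: MHC class I genes and chemokines lie below 0 and general pluripotency genes, Nanog excepted, lie above it. 66 genes, mostly small RNAs, fall outside the plotted range of -2.5 to 2.5.

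Fibroblast and matrix genes were lower in KIX. Of 10 fibroblast genes tested, 0 rose and 6 fell, with a median of -0.63, against 0.00 for all genes. Col1a2, a chain of type I collagen, had 188 and 211 FPKM in KIX and 288 and 340 FPKM in KI libraries (log2 difference -0.65 ± 0.16 SE, adjusted p = 0.0219). Col3a1, the type III collagen chain, had 410 and 432 FPKM in KIX and 622 and 692 FPKM in KI libraries (-0.64, adjusted p = 0.0239). S100a4, a calcium-binding protein of fibroblasts, fell to 220 and 270 FPKM in KIX, against 359 and 455 FPKM in KI libraries (-0.73, adjusted p = 0.00678). In each of these genes both KIX libraries lay below both KI libraries, as they did in 9 of the 10 fibroblast genes and in 4477 of all 13080 tested genes. Of 14 other collagen and matrix genes, 6 fell and 0 rose (median -0.51). With all 16 libraries in the fit, 1 of the 10 fibroblast genes and 2 of these 14 were called lower. The 6 matrix genes that fell in the fit of 12 libraries included the proteoglycan Bgn and the matrix protein Sparc. In that fit Bgn was at 347 and 397 FPKM in KIX against 543 and 655 FPKM in KI (-0.68, adjusted p = 0.0138). Sparc was at 456 and 489 FPKM in KIX against 673 and 759 FPKM in KI (-0.60, adjusted p = 0.0206). Lum, a small proteoglycan of connective tissue, was at 26.6 and 27.1 FPKM in KIX and 37.7 and 47.3 FPKM in KI libraries (-0.63, adjusted p = 0.0375).

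The fibroblast score averages log2(FPKM + 1) of the 10 fibroblast genes and was 6.18 and 6.24 in KIX and 6.66 and 6.89 in KI libraries of number 10. The groups did not overlap and differed by -0.56. A two-sided exact permutation test gave p = 0.333, the smallest that 6 arrangements of 4 libraries allow. In bulk RNA, fewer fibroblasts and less RNA per fibroblast cannot be told apart. At number 1 the score was 6.46 and 6.44 in KIX and 6.96 and 6.39 in KI libraries. At number 4 it was 5.93 and 5.95 in KIX and 5.79 and 6.03 in KI libraries. The score over the 12 general pluripotency genes ran the other way at number 10, at 7.74 and 7.69 in KIX and 7.47 and 7.37 in KI libraries. Summed FPKM of other cell types' markers gave 29.4 and 26.5 in KIX and 37.1 and 41.8 in KI for 6 macrophage genes, and 37.8 and 44.1 in KIX and 52.6 and 84.6 in KI for 5 smooth muscle genes. For 5 endothelial genes the sums were 15.9 and 15.0 in KIX and 14.2 and 13.1 in KI, for 8 extraembryonic endoderm genes 17.5 and 16.4 in KIX and 15.8 and 17.4 in KI, and for 8 trophoblast genes 29.3 and 26.8 in KIX and 55.4 and 42.4 in KI. Single genes carried much of some sums. In the macrophage sums Lyz2 had 17.3 and 14.5 FPKM in KIX and 23.2 and 26.8 FPKM in KI. Tagln had 19.2 and 22.2 FPKM in KIX and 26.1 and 45.4 FPKM in KI in the smooth muscle sums. Tfap2c had 18.0 and 15.9 FPKM in KIX and 31.2 and 21.4 FPKM in KI in the trophoblast sums. No marker of these lists was at 0 in all 4 libraries.

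**Figure D2:**
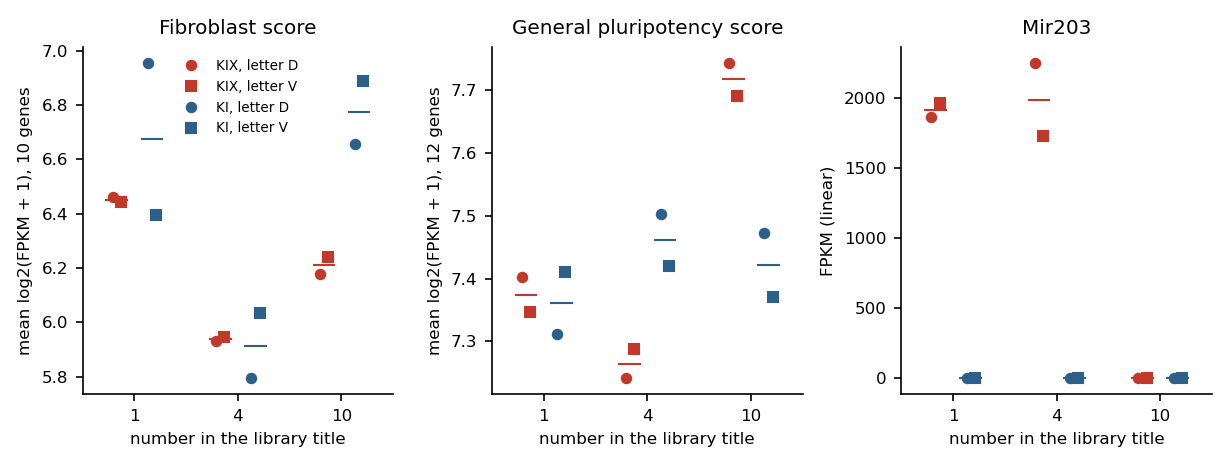
The fibroblast score, the general pluripotency score (both means of log2(FPKM + 1)) and the FPKM of Mir203 in each iPSC library, by the number in its title, with KIX in red left of KI in blue and the mean of each pair as a bar. At number 10 both KIX libraries lie below both KI libraries in the fibroblast score and above them in the pluripotency score, and Mir203 is at 0 in all 4.

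The KI libraries of number 1 differ between themselves in the fibroblast score by the same amount: V minus D was -0.56 there, against -0.56 for KIX minus KI at number 10. That pair, 1 library a side and chosen after the values were seen, allows no test, but sets a like gap in fibroblast score beside each list. The fibroblast list, which fixed the choice of the pair, had a median of -0.63 at number 10 and -0.52 in the KI pair, and the other matrix list -0.51 and -0.45. The MHC class I list had -0.82 at number 10 and -0.01 in the KI pair, the chemokine list -0.89 and -0.03, the interferon-induced list -0.48 and 0.26, and the DNA methylation list 0.42 and 0.03. Some genes of these lists had lower levels at number 1, where H2-K1 was at 71.4 and 68.2 FPKM in KI libraries against 223 and 204 FPKM in those of number 10, and Ptx3 at 11.6 and 18.1 FPKM against 114 and 175 FPKM. A value near 0 in the KI pair therefore does not show what the same gap brings at number 10. Of the 1998 genes called lower in KIX, 75.0% also had a negative difference in the KI pair, with a median of -0.10 there and -0.47 at number 10. Among the 1386 called higher, 76.6% were positive in the KI pair, with medians of 0.06 and 0.29. Over all tested genes 50.2% were positive in the pair.

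Adding the fibroblast score as a covariate left 31 called genes, 9 higher and 22 lower in KIX. Of the 3384 genes called without it, 3380 kept the sign of their difference and 29 stayed called in the same direction. Their median size was 0.29 with the covariate and 0.40 without it, and the median standard error over all tested genes was 0.13 with it and 0.09 without it. The median of the fibroblast list was then -0.01, a value near 0 by construction, since the score is made of the same genes. The other matrix list had -0.02, the MHC class I list -0.81 and the chemokine list -0.75.

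**Figure D3:**
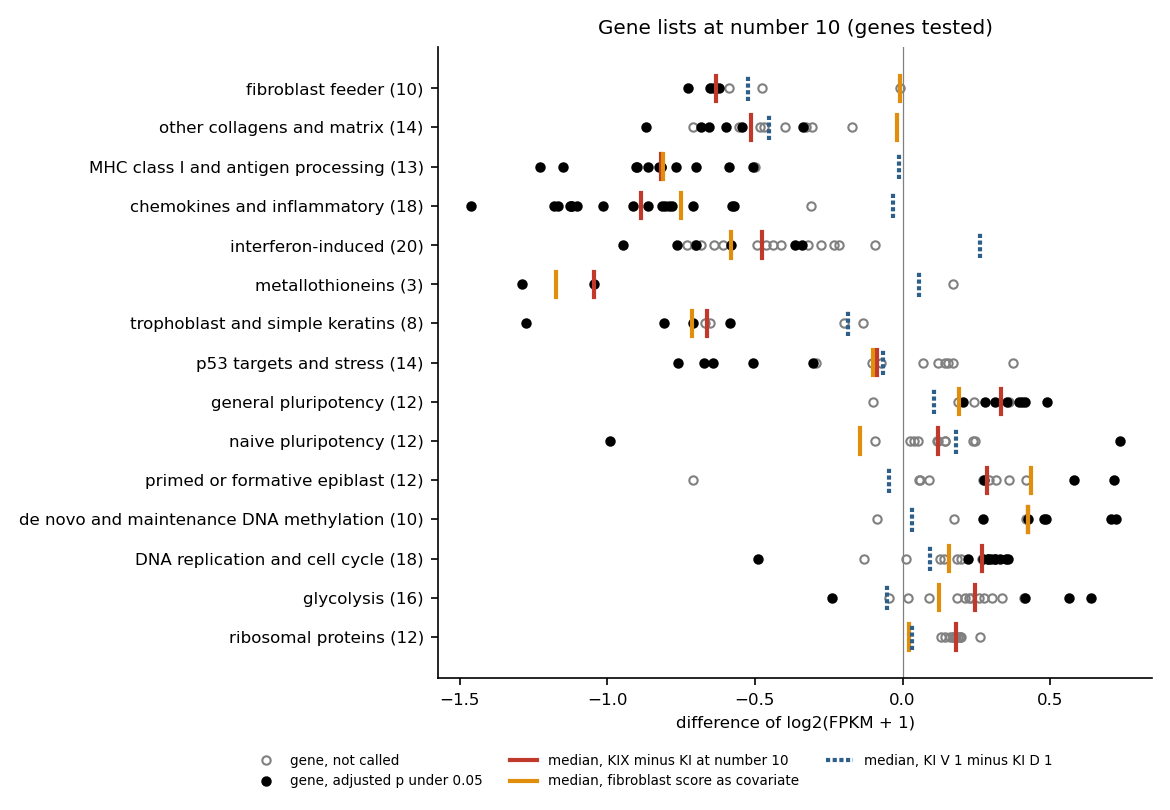
Differences of log2(FPKM + 1) for the tested genes of 15 lists at number 10, KIX minus KI, with called genes filled. Vertical bars give each list's median, its median with the fibroblast score as a covariate and its median in the KI pair of number 1 (V minus D). The fibroblast bar with the covariate is near 0 by construction and the KI pair was chosen for its fibroblast score. The MHC class I and chemokine bars with and without the covariate lie close together, but the covariate leans on that same KI pair, whose scores spread most.

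MHC class I genes were lower in KIX almost throughout the list. Of 13 genes of class I presentation, 12 fell and 0 rose (15.3% of all tested genes fell), with a median of -0.82. With the fibroblast score as a covariate, which also raised the standard errors, the median was -0.81 and 0 of the 13 were called. B2m, the light chain shared by all class I molecules, was at 422 and 459 FPKM in KIX and 798 and 849 FPKM in KI libraries, a mean of 440.6 ± 26.7 and 823 ± 36.6 FPKM (SD, n = 2 each). Its log2 difference was -0.90 ± 0.08 (SE, adjusted p = 0.00213). H2-K1, a classical heavy chain, had 109 and 119 FPKM in KIX and 223 and 204 FPKM in KI libraries (-0.90, adjusted p = 0.00339). The Qa-region heavy chains H2-Q6 (4.69 and 6.002 FPKM in KIX, 14.5 and 13.1 FPKM in KI) and H2-Q7 (5.89 and 6.71 FPKM in KIX, 17.7 and 12.9 FPKM in KI) fell by 1.23 and 1.15 on the log2 scale. These H2-Q genes are near-identical, so the split of reads between them is uncertain. The gene of the list that was not called was Psmb9, an immunoproteasome subunit, at 16.6 and 21.2 FPKM in KIX and 25.5 and 28.5 FPKM in KI libraries (adjusted p = 0.0585).

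Inflammatory genes fell as a group. Of 18 chemokine and acute-phase genes, 17 fell and 0 rose (median -0.89). The gene that was not called, Ccl9, was near 1 FPKM in all 4 libraries. Cxcl1, a neutrophil chemokine, had 17.1 and 19.5 FPKM in KIX and 39.9 and 42.2 FPKM in KI libraries (-1.13 ± 0.09 SE, adjusted p = 0.00213). Ptx3, a soluble pattern-recognition protein, had 38.9 and 66.1 FPKM in KIX and 114 and 175 FPKM in KI libraries (-1.46, adjusted p = 0.00987). The chemokine Ccl20 was at 4.11 and 9.49 FPKM in KIX and 11.3 and 21.4 FPKM in KI libraries (-1.18, adjusted p = 0.0428). Saa3, an acute-phase protein, was at 6.23 and 8.48 FPKM in KIX and 20.6 and 15.0 FPKM in KI libraries (-1.17, adjusted p = 0.0148). Fibroblasts can make many of these proteins, and the fibroblast score was lower in KIX as well. With that score as a covariate, which also raised the standard errors, the median of the list was -0.75, and Cxcl1 alone of the 18 stayed called (-1.04, adjusted p = 0.0418).

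Interferon-induced genes moved in the same direction with fewer calls: of 20 genes, all 20 differences were negative, 6 genes fell and 14 were not called (median -0.48). With library medians made equal 3 of the 20 fell. Ifi44 was at 25.6 and 31.6 FPKM in KIX and 51.7 and 60.0 FPKM in KI libraries (-0.95 ± 0.19 SE, adjusted p = 0.0102). Irf7, the transcription factor that amplifies type I interferon, was at 102 and 120 FPKM in KIX and 187 and 190 FPKM in KI libraries (-0.76, adjusted p = 0.00736). Isg15, a ubiquitin-like modifier, was at 363 and 441 FPKM in KIX and 614 and 688 FPKM in KI libraries (-0.70, adjusted p = 0.0408).

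The promoter of B2m is shown as that of the light chain common to the class I list. It runs from 250 bases before the start of the gene to 50 after it, at chr2:122147437-122147736 (GRCm38.p6, plus strand, RefSeq), and capitals mark the 1 match to the core of the interferon response element, GAAA followed by 2 bases of any kind and GAAA again, searched on both strands.
B2m: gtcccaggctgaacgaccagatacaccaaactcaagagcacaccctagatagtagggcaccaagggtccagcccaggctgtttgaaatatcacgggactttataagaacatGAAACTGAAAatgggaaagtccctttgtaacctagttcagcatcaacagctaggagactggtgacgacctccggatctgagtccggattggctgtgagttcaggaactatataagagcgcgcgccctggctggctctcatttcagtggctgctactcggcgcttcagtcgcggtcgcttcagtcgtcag
The core was present in 3.49% of 27025 promoter windows of that length and in 3.06% of the 9179 windows of tested genes. It was present in 10 of the 16 interferon-induced genes with a window (62.5%), in 2 of 11 class I genes (B2m and H2-T23) and in 1 of 12 chemokine genes, Saa3.

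Metallothioneins, small cysteine-rich proteins that bind zinc and copper and respond to metal load, split by gene. Mt2 had 484 and 550 FPKM in KIX and 1283 and 1242 FPKM in KI libraries (-1.29 ± 0.15 SE, adjusted p = 0.00274). Mt1 had 199 and 230 FPKM in KIX and 445 and 441 FPKM in KI libraries (-1.05 ± 0.14 SE, adjusted p = 0.00381). Mt3, the brain-type member, overlapped between the prefixes, at 7.07 and 7.95 FPKM in KIX and 5.25 and 8.13 FPKM in KI libraries (adjusted p = 0.554). Mt2 stayed called with the fibroblast score as a covariate (-1.64, adjusted p = 0.0418). The promoters of these neighbouring genes of chromosome 8 are shown with matches to TGCACNC or TGCGCNC, the core of the metal response element, in capitals (both strands searched, same window and source as above). Mt1 is at chr8:94178839-94179138, Mt2 at chr8:94172368-94172667 and Mt3 at chr8:94152357-94152656, all on the plus strand.
Mt1: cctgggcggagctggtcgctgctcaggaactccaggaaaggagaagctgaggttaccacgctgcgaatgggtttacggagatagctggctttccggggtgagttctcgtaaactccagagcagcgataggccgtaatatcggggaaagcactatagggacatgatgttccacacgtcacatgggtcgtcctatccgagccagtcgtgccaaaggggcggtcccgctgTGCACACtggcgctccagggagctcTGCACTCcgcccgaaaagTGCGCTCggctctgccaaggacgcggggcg
Mt2: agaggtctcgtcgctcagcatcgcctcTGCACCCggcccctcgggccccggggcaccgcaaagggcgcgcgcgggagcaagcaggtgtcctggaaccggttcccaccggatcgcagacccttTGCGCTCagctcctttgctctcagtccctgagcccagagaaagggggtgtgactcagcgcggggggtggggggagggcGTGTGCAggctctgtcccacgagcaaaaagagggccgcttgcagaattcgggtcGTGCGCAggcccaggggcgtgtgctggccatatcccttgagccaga
Mt3: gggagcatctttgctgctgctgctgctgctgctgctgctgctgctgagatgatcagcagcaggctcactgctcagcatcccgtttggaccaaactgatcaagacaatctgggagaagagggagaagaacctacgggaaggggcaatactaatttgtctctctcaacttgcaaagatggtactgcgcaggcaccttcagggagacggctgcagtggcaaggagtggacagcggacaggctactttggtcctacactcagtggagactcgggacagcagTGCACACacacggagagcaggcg
Mt1 held 3 matches, Mt2 held 4 and Mt3 held 1, and 36.6% of the windows of tested genes held at least 1 and 3.50% at least 3. Of all windows, 25.6% held at least 1 and 2.00% at least 3.

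Among called genes without overlap whose higher mean was at least 5 FPKM, the largest falls outside those lists were in Rhox9, Rhox6, Krt8, Tmem30b, Angptl7 and AA467197. Rhox9 and Rhox6, X-linked homeobox genes of the reproductive cluster active in placenta and germ cells, were at 9.05 and 8.17 FPKM and at 9.78 and 9.89 FPKM in KIX libraries. In KI libraries they were at 39.5 and 25.3 FPKM and at 39.1 and 24.7 FPKM, so the groups lay far apart. Rhox9 fell by 1.76 on the log2 scale (adjusted p = 0.00318) and Rhox6 by 1.57 (adjusted p = 0.00344). The Rhox genes are a family of close copies, so reads may be split unevenly between them. Krt8, a keratin of simple epithelia, had 2.92 and 2.94 FPKM in KIX and 9.46 and 7.64 FPKM in KI libraries (-1.28 ± 0.11 SE, adjusted p = 0.00213). Its partner Krt18 had 3.92 and 3.80 FPKM in KIX and 7.64 and 7.38 FPKM in KI libraries (-0.81, adjusted p = 0.00264), and Krt7 had 1.18 and 1.204 FPKM against 2.59 and 2.58 FPKM in KI (-0.71). Of 8 trophoblast and simple keratin genes, 4 fell and 0 rose (median -0.66). The transcription factor Tfap2c, needed in trophoblast and germ cells, was at 18.0 and 15.9 FPKM in KIX and 31.2 and 21.4 FPKM in KI libraries (-0.59, adjusted p = 0.0209). Tmem30b, a flippase subunit, fell by 1.21, Angptl7, a secreted angiopoietin-like protein, by 1.16, and AA467197 by 1.16. Rhox9, Rhox6, Krt8 and Krt7 stayed called with the fibroblast score as a covariate, at -2.30, -2.07, -1.18 and -0.90.

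Gbx2, Rpl39l and AI662270 led the rises. Gbx2, a homeobox factor downstream of LIF and STAT3 in stem cells, had 25.0 and 26.5 FPKM in KIX and 11.3 and 8.78 FPKM in KI libraries (1.29 ± 0.13 SE, adjusted p = 0.00213). Rpl39l, a ribosomal protein paralog best known from testis, had 64.2 and 53.2 FPKM in KIX and 26.0 and 17.6 FPKM in KI libraries (1.41, adjusted p = 0.00293). AI662270 had 28.8 and 24.8 FPKM in KIX and 9.99 and 8.44 FPKM in KI libraries (1.44, adjusted p = 0.00213). The prefixes did not overlap in these 3 genes, which the rule that picked them required. The others of the 12 largest rises lay between 0.98 and 1.23: Cyp2b23, Xlr3c, Tuba3b, Cox7b2, Obox6, Gtsf1, Ppm1j, Accsl and Myo1f. Tuba3b, Xlr3c, Obox6 and Rpl39l have close copies in the genome, which makes their share of reads uncertain. Gtsf1, a partner of Piwi proteins in the germ line, was at 6.45 and 5.75 FPKM in KIX and 2.35 and 2.66 FPKM in KI libraries (1.02, adjusted p = 0.00517). Of 11 germ-line genes, 2 rose and 0 fell, namely the RNA-binding protein Dazl (10.2 and 7.90 FPKM in KIX, 4.89 and 3.90 FPKM in KI, 0.89, adjusted p = 0.0096) and Asz1 (1.74 and 1.61 FPKM in KIX, 0.76 and 0.48 FPKM in KI, 0.73, adjusted p = 0.00383).

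General pluripotency genes were higher in KIX. Of 12 genes, 8 rose and 0 fell (10.6% of all tested genes rose), with a median of 0.33. With all 16 libraries in the fit 3 of the 12 were called higher. Pou5f1 rose by 0.31 ± 0.07 (SE, adjusted p = 0.0133) (values above). Dppa4, a chromatin protein of pluripotent cells, had 112 and 101 FPKM in KIX and 78.9 and 72.1 FPKM in KI libraries (0.49, adjusted p = 0.0106). Utf1 had 612 and 560 FPKM in KIX and 465 and 414 FPKM in KI libraries (0.42, adjusted p = 0.0311). L1td1, an RNA-binding protein, had 202.9 and 198 FPKM in KIX and 156 and 148 FPKM in KI libraries (0.40, adjusted p = 0.00573), and the growth factor Fgf4 had 84.9 and 78.9 FPKM against 67.9 and 55.8 FPKM in KI (0.40, adjusted p = 0.027). Sox2 and Nanog overlapped between the prefixes: Sox2 was at 168 and 149 FPKM in KIX and 155 and 125 FPKM in KI libraries, and Nanog at 201 and 180 FPKM in KIX and 244 and 171 FPKM in KI libraries. The fibroblast score was lower in the same KIX libraries, and the list's median was 0.11 in the KI pair of number 1 and 0.19 with the score as a covariate, with which none of the 12 was called.

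Naive and primed pluripotency genes are set beside all tested genes, of which 10.6% rose and 15.3% fell. Of 12 naive genes 1 rose and 1 fell (8.33% each). Nr0b1, an orphan nuclear receptor that binds Pou5f1 protein, had 100 and 92.6 FPKM in KIX and 68.1 and 48.6 FPKM in KI libraries (0.73, adjusted p = 0.00954). Dppa3, a maternal factor that shields DNA from demethylation and keeps Uhrf1 in check, had 31.5 and 31.3 FPKM in KIX and 75.8 and 52.99 FPKM in KI libraries (-0.99 ± 0.18 SE, adjusted p = 0.00804). Of 12 primed or formative genes 3 rose (25%) and 0 fell. Pou3f1, a POU factor of the epiblast, had 49.4 and 58.3 FPKM in KIX and 28.5 and 36.4 FPKM in KI libraries (0.72, adjusted p = 0.0136). Zic5 had 14.9 and 15.8 FPKM in KIX and 8.42 and 11.7 FPKM in KI libraries (0.58, adjusted p = 0.011). Of 9 streak and early mesoderm genes 1 fell: Fgf8 was at 0.67 and 0.89 FPKM in KIX and at 1.71 and 7.24 FPKM in KI libraries (-1.41, adjusted p = 0.0339), with the KI library of the letter D close to the KIX libraries.

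DNA methylation genes were higher in KIX: of 10 genes 6 rose and 0 fell, with a median of 0.42. Dnmt3a, a de novo methyltransferase, had 48.7 and 52.4 FPKM in KIX and 24.5 and 37.2 FPKM in KI libraries (0.72 ± 0.15 SE, adjusted p = 0.0126). Dnmt3l, its catalytically inactive partner, had 202.6 and 190.1 FPKM in KIX and 135 and 106 FPKM in KI libraries (0.71 ± 0.11 SE, adjusted p = 0.00568). Uhrf1, which brings the maintenance enzyme to replicated DNA, had 177 and 177 FPKM in KIX and 125 and 127 FPKM in KI libraries (0.49, adjusted p = 0.00492). Tet2, which oxidises methylcytosine, had 10.8 and 10.5 FPKM in KIX and 8.45 and 6.36 FPKM in KI libraries (0.48, adjusted p = 0.0347). Dnmt3b and Tet1 did not pass the test: Dnmt3b had 203.4 and 239.6 FPKM in KIX and 145 and 188 FPKM in KI libraries (0.42, adjusted p = 0.0672), and Tet1 had 38.2 and 36.8 FPKM in KIX and 30.3 and 25.5 FPKM in KI libraries (adjusted p = 0.0955). In 9 of the 10 genes of the list, the named ones among them, both KIX libraries lay above both KI libraries. Over all 13080 tested genes, 4456 did so. With the fibroblast score as a covariate the list's median stayed at 0.42, and 0 of the 10 were called. Of 10 Polycomb genes 4 rose and 2 fell, among them Cbx7, a reader of histone methylation (53.2 and 53.8 FPKM in KIX, 42.7 and 40.9 FPKM in KI, 0.35, adjusted p = 0.00383). Ezh2, the methyltransferase, was at 58.0 and 58.0 FPKM in KIX and 47.9 and 45.7 FPKM in KI libraries (0.30, adjusted p = 0.0103). The 2 that fell were Bmi1 and Phf19. Phf19, a subunit that guides the Ezh2 complex, was at 3.05 and 2.44 FPKM in KIX and 5.76 and 4.21 FPKM in KI libraries.

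**Figure D4:**
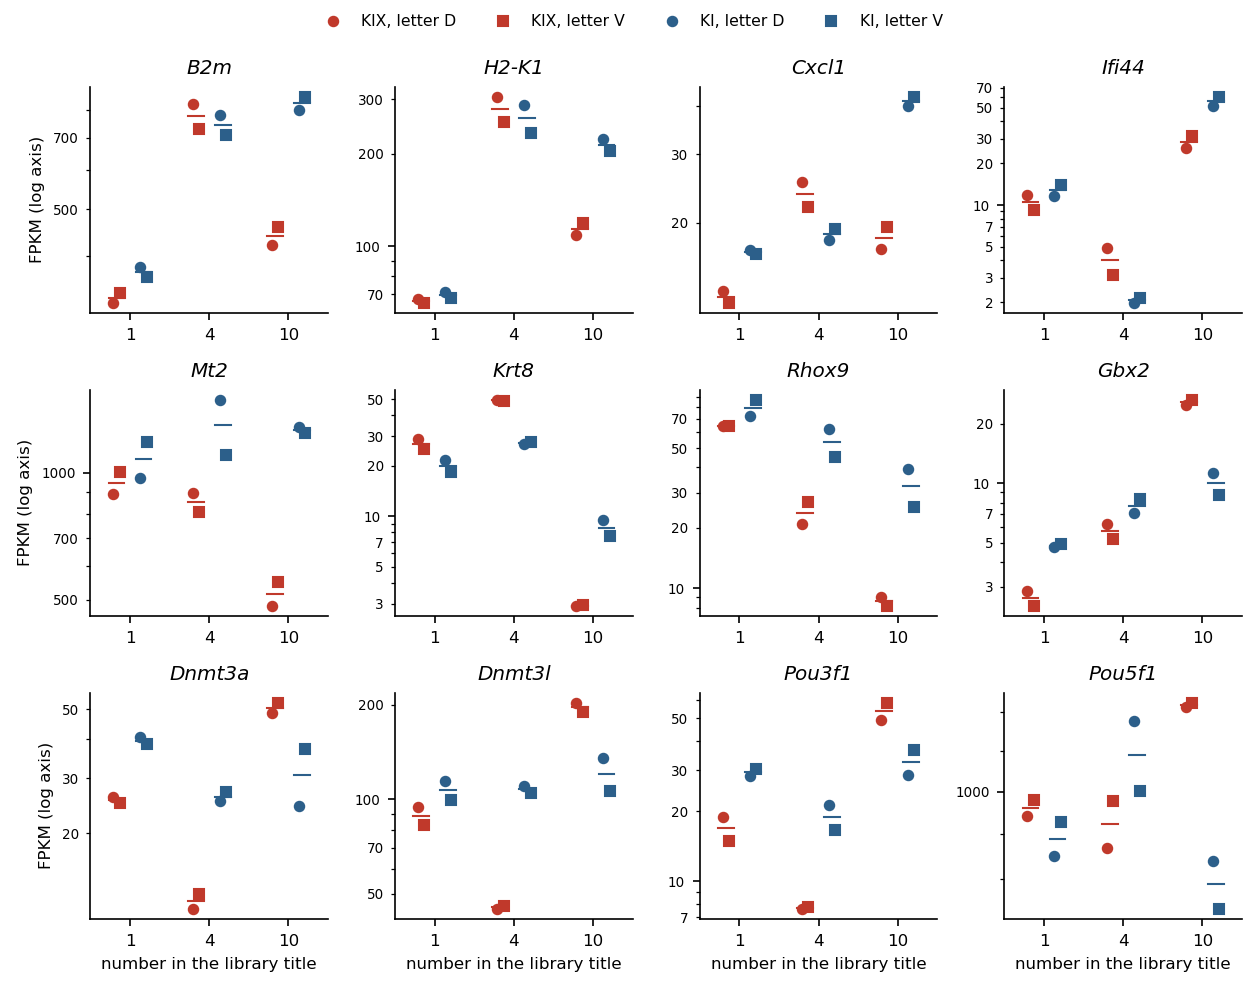
FPKM on a log axis of 12 named genes in each iPSC library, by the number in its title, with KIX in red left of KI in blue, circles for the letter D, squares for the letter V and a bar for the mean of each pair. At number 10 the KIX libraries lie below the KI libraries in B2m, H2-K1, Cxcl1, Ifi44, Mt2, Krt8 and Rhox9 and above them in Gbx2, Dnmt3a, Dnmt3l, Pou3f1 and Pou5f1, with no overlap.

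More replication genes rose than fell, while 10.6% of all tested genes rose and 15.3% fell. Of 18 replication and cell cycle genes 10 rose and 1 fell (median 0.27). The helicase subunit Mcm2 had 212 and 210 FPKM in KIX and 165 and 165 FPKM in KI libraries (0.36, adjusted p = 0.00442), Top2a, the mitotic topoisomerase, had 167 and 165 FPKM against 128 and 132 FPKM in KI (0.35, adjusted p = 0.00731), and the cyclin Ccne1 had 166 and 173 FPKM against 127 and 143 FPKM in KI (0.33, adjusted p = 0.00918). Ccnd1, a cyclin also made by fibroblasts, fell to 117 and 142 FPKM in KIX, against 162 and 203.4 FPKM in KI libraries (-0.49, adjusted p = 0.0339). Of 14 p53 and stress genes 5 fell and 0 rose: the cell cycle inhibitor Cdkn1a was at 92.8 and 105 FPKM in KIX and 148 and 169 FPKM in KI libraries (-0.67, adjusted p = 0.00383), and the stress factor Ddit3 at 19.4 and 21.5 FPKM in KIX and 34.9 and 35.7 FPKM in KI libraries (-0.76, adjusted p = 0.00736). Of 16 glycolysis genes 3 rose (18.8%) and 1 fell (6.25%). Those that rose were the mitochondrial gatekeeper kinase Pdk1 (25.8 and 25.7 FPKM in KIX, 16.2 and 16.1 FPKM in KI, 0.64), hexokinase Hk2 (56.6 and 53.9 FPKM in KIX, 36.2 and 38.0 FPKM in KI, 0.56) and lactate dehydrogenase Ldha (688 and 721 FPKM in KIX, 492 and 568 FPKM in KI, 0.41, adjusted p = 0.035). Hypoxia genes outside glycolysis had 1 rise and 4 falls among 15, including the peptide hormone Adm at 4.06 and 4.67 FPKM in KIX and 8.94 and 12.4 FPKM in KI libraries (-1.11, adjusted p = 0.00792). Of 12 ribosomal protein genes 0 were called by limma (1 had an unadjusted p under 0.05). In all 12, both KIX libraries lay above both KI libraries, with a median of 0.18. That median was 0.06 with quantile scaling and 0.24 with equal library medians. Of 15 respiratory chain genes 4 rose (26.7%) and 0 fell, and 13 had both KIX libraries above both KI libraries. Over all 13080 tested genes, 4456 did.

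Targets of signalling pathways gave calls in both directions. Over all tested genes 10.6% rose and 15.3% fell, and several counts below lie near or under those shares. Of 12 FGF and MAPK targets 2 rose and 3 fell: the ETS factor Etv4 was at 64.7 and 64.7 FPKM in KIX and 42.2 and 37.6 FPKM in KI libraries (0.69, adjusted p = 0.00259), and the immediate-early gene Ier3 at 25.0 and 23.6 FPKM in KIX and 38.7 and 41.0 FPKM in KI libraries (-0.69, adjusted p = 0.00603). Of 10 LIF and STAT3 targets 2 rose, Gbx2 among them, and 1 fell. Of 9 Wnt targets 2 fell and 0 rose, Ccnd1 and Sp5, the second a low gene at 0.55 and 0.73 FPKM in KIX and 1.55 and 3.29 FPKM in KI libraries (-1.01, adjusted p = 0.0215). Of 10 Nodal pathway genes 3 rose and 0 fell, and of 8 BMP targets 1 rose and 3 fell. Cth, which makes cysteine from cystathionine, had 31.9 and 33.0 FPKM in KIX and 17.8 and 19.5 FPKM in KI libraries (0.77 ± 0.07 SE, adjusted p = 0.00213), as 1 of 2 rises against 1 fall among 14 genes of the ATF4 list. The other lists gave 1 fall among 9 two-cell-like genes, 1 rise and 1 fall among 10 endoderm genes, 1 fall among 5 neuroectoderm genes, 0 calls among 8 cardiac and 5 blood genes (0 and 1 with an unadjusted limma p under 0.05), 2 falls among 4 macrophage genes, 3 falls among 9 cornified-layer genes, 3 falls among 12 Hox genes, 1 rise and 1 fall among 10 endoplasmic reticulum stress genes and 3 rises among 14 sterol synthesis genes. Of 8 genes often used as references 0 rose and 2 fell, and 1 of the 2 was B2m, already counted in the class I list. Lama1, a laminin chain and the endoderm list's rise, was at 4.30 and 3.83 FPKM in KIX and 1.67 and 1.75 FPKM in KI libraries (0.90, adjusted p = 0.00264).

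Imprinted genes, expressed from 1 parental copy, went both ways. Of 16 outside the Dlk1-Dio3 region 4 rose and 5 fell (10.6% of all tested genes rose and 15.3% fell). The linked growth genes Igf2 (45.1 and 58.4 FPKM in KIX, 79.6 and 94.6 FPKM in KI) and H19 (45.4 and 57.4 FPKM in KIX, 78.0 and 85.9 FPKM in KI) fell by 0.75 (adjusted p = 0.0139) and 0.67 (adjusted p = 0.00606). The paternally expressed Peg3 had 48.0 and 47.1 FPKM in KIX and 31.7 and 28.7 FPKM in KI libraries (0.64, adjusted p = 0.0202), and Nnat had 19.4 and 24.3 FPKM in KIX and 10.6 and 15.9 FPKM in KI libraries (0.70, adjusted p = 0.0157). Of 5 genes of the Dlk1-Dio3 region, the noncoding Mirg rose (12.9 and 14.2 FPKM in KIX, 7.82 and 10.9 FPKM in KI, 0.50, adjusted p = 0.0332) and Dio3, which inactivates thyroid hormone, fell (0.58 and 0.51 FPKM in KIX, 1.53 and 1.53 FPKM in KI, -0.71, adjusted p = 0.00264).

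Reported targets of miR-203 did not move one way at number 10, where Mir203 was listed at 0. Of 9 tested, Dnmt3a rose and Snai2, Zeb2 and Bmi1 fell. Snai2, a factor of epithelial-mesenchymal transition, was at 3.91 and 4.46 FPKM in KIX and 6.66 and 7.67 FPKM in KI libraries (-0.65, adjusted p = 0.00501). Zeb2, which acts in the same process and is also made by fibroblasts, was at 2.51 and 3.32 FPKM in KIX and 4.58 and 5.72 FPKM in KI libraries (-0.65, adjusted p = 0.0141). Bmi1 was at 4.25 and 3.88 FPKM in KIX and 4.77 and 5.38 FPKM in KI libraries (-0.26, adjusted p = 0.0479). Over all tested genes with an annotated 3′ end, the median difference at number 10 was -0.02 for 1869 genes with at least 1 seed match and 0.01 for 9469 with none. At number 4 these medians were 0.08 with and 0.02 without a match, and at number 1 they were -0.01 and 0.00. Genes with a match have longer 3′ ends, with a median of 2595 bases against 941 bases. Among 3′ ends of at least 1000 bases the medians at number 10 were -0.02 with and -0.02 without a match. In that set they were 0.09 with and 0.07 without a match at number 4, and -0.015 and -0.004 at number 1.

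The difference between the prefixes at number 10 was tested against those at numbers 4 and 1. The KIX minus KI difference changed from number 4 to number 10 in 3986 genes (30.5%) and from number 1 to number 10 in 654 genes (5.00%), by the test of the change itself. Without KIX D of number 10 these counts were 1910 and 52, without KIX V 2538 and 151, and without KI V 2708 and 306. Of the 3384 genes called at number 10, 736 were also called at number 4, which is 21.7% of the calls at number 10 and 28.2% of those at number 4. Of these, 311 had the same sign and 425 had the opposite sign with a called change, 214 of them higher in KIX at number 10 and 211 lower. At number 1, where 273 genes were called, 64 genes had the same sign as at number 10 and were called at both, and 34 had the opposite sign with a called change.

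The Dnmt3 genes were lower in KIX at number 4 and higher or not called at number 10. At number 4, Dnmt3a was at 11.4 and 12.7 FPKM in KIX and 25.4 and 27.0 FPKM in KI libraries, and the change of its difference to number 10 was 1.79 ± 0.22 (SE, adjusted p = 0.00165). Dnmt3l was at 44.8 and 45.7 FPKM in KIX and 110 and 105 FPKM in KI libraries of number 4 (change 1.94 ± 0.16 SE, adjusted p = 0.000567), and Dnmt3b at 68.8 and 75.6 FPKM in KIX and 123 and 160 FPKM in KI (change 1.37, adjusted p = 0.00354). At number 1, Dnmt3a was at 26.1 and 24.9 FPKM in KIX and 40.8 and 38.6 FPKM in KI libraries, with a change to number 10 of 1.34 (adjusted p = 0.0182). KIX was thus below KI in the library values of Dnmt3a at numbers 1 and 4 and above it at number 10. Pou3f1 followed the same course, at 7.61 and 7.72 FPKM in KIX and 21.3 and 16.6 FPKM in KI libraries of number 4 (change 1.91, adjusted p = 0.00136). Among genes called at number 10, large changes upward were in Aire, the thymic regulator of self-antigens (change 2.63), and the uridine phosphorylase Upp1 (2.30). Upp1 was at 137 and 128 FPKM in KIX and 71.5 and 83.0 FPKM in KI libraries of number 10, and at 61.1 and 70.6 FPKM in KIX and 221 and 165 FPKM in KI libraries of number 4. Tet2 and Cth kept the higher KIX level at both numbers, with changes of -0.70 and -0.96.

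Falls at number 10 were in part rises at number 4. Krt8 was at 49.4 and 48.6 FPKM in KIX and 27.1 and 27.8 FPKM in KI libraries of number 4 (change -2.09 ± 0.15 SE, adjusted p = 0.000269). Sp110, a nuclear body protein and the fall of the two-cell-like list, was at 4.91 and 5.71 FPKM in KIX and 7.68 and 10.2 FPKM in KI libraries of number 10, and at 10.5 and 8.39 FPKM in KIX and 0.86 and 0.89 FPKM in KI libraries of number 4 (change -3.12, adjusted p = 0.000119). Dio3 changed by -2.63. B2m was level at number 4, with 820 and 728 FPKM in KIX and 779 and 710 FPKM in KI libraries, and its difference changed by -0.96 ± 0.11 (SE, adjusted p = 0.0016). At number 1 it was lower in both prefixes, at 321 and 337 FPKM in KIX and 381 and 363 FPKM in KI libraries. Differences of 12 of the 13 class I genes and 15 of the 18 chemokine genes changed between numbers 4 and 10, against 30.5% of all tested genes. Between numbers 1 and 10, 3 and 4 of them changed, against 5.00% of all tested genes. Of the 3384 genes called at number 10, 2196 changed from number 4 and 506 from number 1. Against number 1, further called changes were in Plbd1 (-1.57), Mtap2 (-1.60) and Atp2a3, a calcium pump (-1.66). Some differences had the same direction at numbers 4 and 10. Obox6, a homeobox gene of the oocyte and early embryo, was higher in KIX at number 4, at 51.1 and 54.3 FPKM against 9.92 and 7.19 FPKM in KI, and Dppa3 was lower, at 36.1 and 43.6 FPKM against 112 and 81.6 FPKM in KI.

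**Figure D5:**
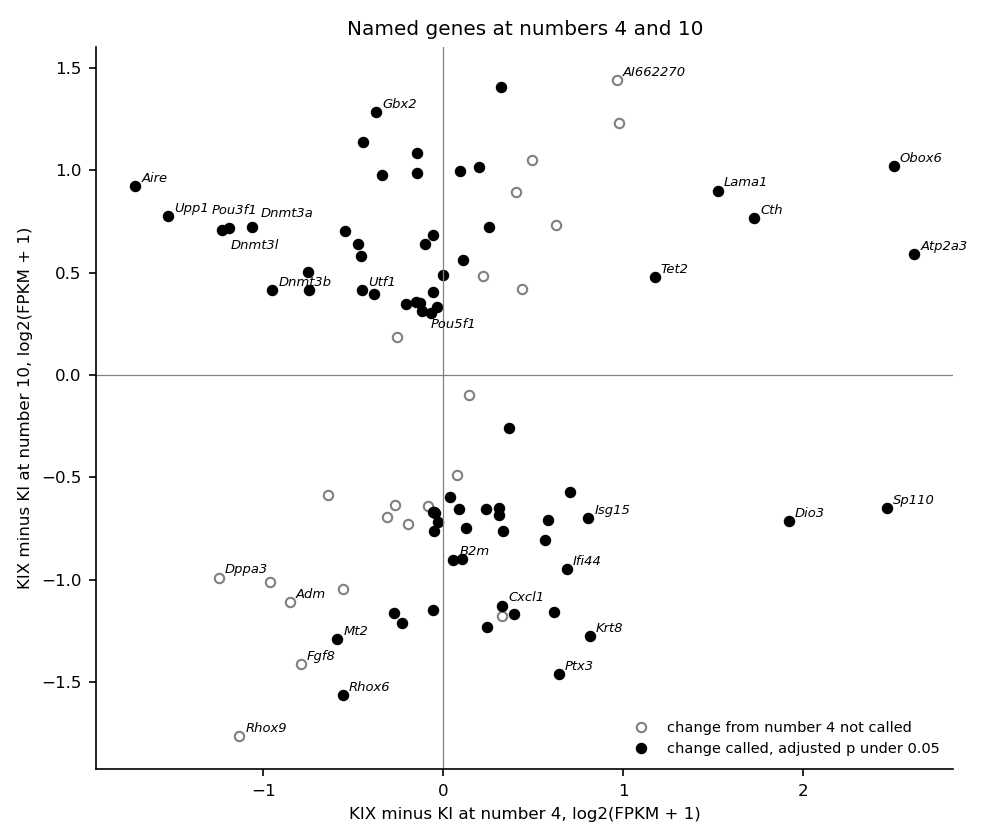
KIX minus KI difference of log2(FPKM + 1) at number 4 (horizontal) and number 10 (vertical) for the named genes other than Mir203, filled where the change between the numbers was called. Dnmt3a, Dnmt3l, Pou3f1 and Upp1 lie at upper left, with KIX lower at number 4 and higher at number 10, and Krt8, Sp110, Dio3 and Isg15 lie at lower right.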

How the data were processed

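The authors deposited 1 table of FPKM values for 16 libraries, and every column matched a library title. Polyadenylated RNA was made into strand-marked libraries, per the labels' protocols. The build GRCm38 (mm10) and the tools Cufflinks 2.2.1, TopHat2 2.0.10, SAMtools 0.1.19, Bowtie 1.0.0 and FastQC are named in the submitters' processing notes, with no settings. The annotation version is not given in the sources used here. FPKM carries no depth: of 5699 low values (1491 genes), 37.9% came within 0.1 of a whole multiple of the gene's smallest value, so no count model or counting interval was used. Scaling to library size also means that genes taking a larger share lower the rest.

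The two-sided test was that of limma 3.58.1 (R 4.3.3) on log2(FPKM + 1), with means per prefix and number over the 12 iPSC libraries, 6 residual degrees of freedom and trended empirical Bayes. It took genes reaching 1 FPKM in 2 or more of the 12, and p was adjusted by Benjamini-Hochberg with calls at 0.05. Simulated data for number 10 had 100 of 13080 genes changed by 1 and 100 by 2 on the log2 scale. Of these, 92 and 97 were called, with 7 false calls among 196. The changed genes had a mean of at least 5 FPKM, and the simulated spread was independent between genes. Real called genes had a median size of 0.40 and may shift together, so these counts do not carry over to them. The members, the 40 gene lists and the tests were chosen with earlier results of these data known. Named genes are the 12 largest rises and falls among called genes whose prefixes do not overlap and whose higher mean is at least 5 FPKM, leaving out predicted and small RNA genes. The rule also takes at most 4 called genes per list, the 6 largest changes in each direction from numbers 4 and 1, and Mir203, Dnmt3a, Dnmt3b, Dnmt3l, Tet1, Tet2, Pou5f1, Nanog and Sox2. Not all named genes are printed, and some results are not reported here. Mt3, Psmb9 and Ccl9 were chosen after their values were seen. Alternatives were pseudocounts of 0.1 and 5 FPKM, no filter, a filter of 5 FPKM, quantile and median scaling, all 16 libraries, number 10 alone, a replicate block, the fibroblast score as a covariate, no trend and leaving out libraries. Leaving out the KI library D of number 1 was added after the data were seen. Sequences came from RefSeq and GENCODE tables of GRCm38, and Python 3.11.15 drew the figures.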

Additional observations from a re-analysis of the deposited data

Results flagged for a closer look

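For most genes named above, the KIX minus KI difference at number 10 departed from that at number 4 by the limma test of the change (adjusted p under 0.05). Most were picked for a called difference at number 10 and some for the change itself. The test of the change uses the same 4 libraries, so the number of such genes is no separate result. Of all 3384 genes called at number 10, 2196 had a called change from number 4. The values are changes on the log2 scale, number 10 minus number 4, and their cause was not tested.

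Upward changes among DNA methylation and Polycomb genes were 1.94 in Dnmt3l, 1.79 in Dnmt3a, 1.37 in Dnmt3b, 0.56 in Cbx7 and 0.37 in Ezh2. Among pluripotency and epiblast genes they were 1.91 in Pou3f1, 1.66 in Gbx2, 1.04 in Zic5, 0.87 in Utf1, 0.78 in L1td1, 0.49 in Dppa4, 0.46 in Fgf4 and 0.43 in Pou5f1. Those of cell cycle and metabolism genes were 1.16 in Ldha, 1.11 in Pdk1, 0.50 in Mcm2, 0.48 in Top2a, 0.45 in Hk2 and 0.37 in Ccne1. Imprinted and germ-line genes had 1.25 in Mirg, 1.25 in Nnat, 0.82 in Gtsf1, 0.74 in Peg3 and 0.47 in Asz1. The others were 2.63 in Aire, 2.30 in Upp1, 2.25 in Mt3, 1.59 in Xlr3c, 1.32 in Myo1f, 1.23 in Tuba3b, 1.13 in Accsl, 1.09 in Rpl39l, 0.90 in Ppm1j and 0.75 in Etv4. Mt3 and Dnmt3b were not called at number 10 itself. Mt3 overlapped between the prefixes there and was 2.08 lower in KIX than in KI at number 4.

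Downward changes in chemokine, interferon and class I genes were -2.10 in Ptx3, -1.63 in Ifi44, -1.56 in Saa3, -1.51 in Isg15, -1.47 in H2-Q6, -1.45 in Cxcl1, -1.10 in Irf7, -1.09 in H2-Q7, -1.004 in H2-K1 and -0.96 in B2m. Keratin and placental genes had -2.09 in Krt8, -1.37 in Krt18, -1.29 in Krt7 and -1.01 in Rhox6. Matrix genes had -0.99 in Bgn, -0.74 in Col1a2 and -0.63 in Sparc, beside fibroblast scores that differed by -0.56 at number 10 and 0.03 at number 4. Reported miR-203 targets had -0.96 in Zeb2, -0.89 in Snai2 and -0.63 in Bmi1. The others were -3.12 in Sp110, -2.63 in Dio3, -2.03 in Atp2a3, -1.77 in AA467197, -1.48 in Obox6, -1.27 in Mtap2, -0.98 in Tmem30b, -0.96 in Cth, -0.89 in Angptl7, -0.88 in Igf2, -0.71 in Ddit3, -0.70 in Mt2, -0.70 in Tet2, -0.69 in Plbd1, -0.63 in Cdkn1a, -0.62 in Lama1, -0.62 in Phf19 and -0.62 in H19.

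In 4 genes the change from number 4 did not pass and the change from number 1 did: 1.51 in AI662270, 1.21 in Cox7b2, -1.47 in Rhox9 and -0.98 in Mt1.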

How the results depend on the processing

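All 3384 calls at number 10 that were tested under an alternative kept their sign in each one but the fibroblast covariate, where 3380 did. For genes whose prefixes do not overlap, leaving out 1 library cannot turn the sign. Fitted alone, the 4 libraries gave 1636 calls, 573 higher and 1063 lower in KIX, and equal library medians gave 2274 higher. The fibroblast score as a covariate gave 31 calls, 9 higher and 22 lower, and left 947 called changes from number 4 and 204 from number 1. It also turned the sign of Lum (0.013), Sox2 (-0.14) and Ccl9 (0.0074). Leaving out 1 library gave 507 to 3174 calls, 160 to 1200 higher and 347 to 1974 lower, with 1910 to 3725 changes from number 4 and 52 to 566 from number 1. The lowest of each came without the KIX library D. Without the KI library D of number 1, 3174 genes were called. Nanog ranged from -0.35 to 0.16 and Mt3 from -0.10 to 0.44 over the 4 fits without 1 library of number 10.

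The letters D and V stand in both prefixes, but the labels do not say that a letter pairs libraries. Across the 1849 genes whose mean reached 50 FPKM, the D minus V deviations of KIX and KI correlated with r of 0.05 at number 10, 0.02 at number 4 and 0.29 at number 1, and no pairing was taken. With a replicate block for the letter within each number 3216 genes were called, and with 1 block for the letter over all numbers 3128. Depth is unknown, so counting error at low FPKM could not be weighed.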
